A study of Mus musculus with 31 samples.

Results

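The genes described here encode the secreted Wnt ligands, their Frizzled and Lrp receptors, the secreted proteins that block them, and the proteins that acylate and export the ligands. They were taken from the GENCODE annotation of the mouse genome (build mm10) as the protein-coding genes whose symbol was Wnt, Fzd, Sfrp or Dkk followed by a number, together with Lrp5, Lrp6, Frzb, Wif1, Porcn and Wls. The rule gave 43 of 21938 protein-coding genes: 19 ligands, 12 receptors, 10 inhibitors and 2 genes of ligand processing. Chromatin accessibility was measured by ATAC-seq, in which the Tn5 transposase inserts sequencing adapters into DNA that is not covered by nucleosomes, in 1 library of parental NIH-3T3 cells, an immortalised line of mouse embryo fibroblasts grown in serum. These cells carried no transcription factor transgene, and their labels name no doxycycline. The other 30 samples of the series, made from lines with an inducible factor or from control lines, were not analysed here. With 1 library of 1 cell line there was no replicate, so no difference below was tested. All intervals are 95% exact Poisson intervals that cover counting error only. They leave out any variation between cultures or libraries.

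Wnt proteins are lipid-modified in the endoplasmic reticulum by Porcn, carried to the cell surface by Wls and bound there by a Frizzled receptor. With the coreceptor Lrp5 or Lrp6, this stabilises beta-catenin, which acts in the nucleus with the TCF/LEF factors, while other ligand and receptor pairs act on cell polarity and movement without beta-catenin. Sfrp proteins, Frzb and Wif1 bind the ligands outside the cell, whereas Dkk1, Dkk2 and Dkk4 bind Lrp5 and Lrp6, and Dkk3 is a divergent relative. Fibroblasts are a common source and a common target of these signals.

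The deposited list held 63456 peaks. Each had a fold enrichment, which is the number of fragments over the summit plus 1 divided by the number expected from the local background plus 1. The median peak had 29 fragments at its summit and the weakest had 10, so that a promoter without a peak was a promoter at which none was called at this depth. All 8 fibroblast markers examined, among them Col1a1, Fn1 and Twist1, had a peak within 1 kb of a transcription start site (TSS), beside 53.7% of all protein-coding genes. So did 2 of 6 epithelial markers (Krt8 and Grhl2), 1 of 4 blood markers (Spi1), 1 of 4 muscle markers (Des), 3 of 4 endothelial markers (Pecam1, Cdh5 and Tek) and none of 4 neuronal markers.

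The sequences under the peaks of the highest receptors, of 2 ligands, of the 1 inhibitor with a promoter peak and of Wls show the DNA that was accessible. They were read from the mm10 genome 5′ to 3′ on the strand of the gene, from the stretch of the peak nearest to the summit that lies outside the exons of coding genes in GENCODE and of mRNAs in RefSeq, with every CG dinucleotide in capitals.
Fzd4 (chr7:89403923-89404072, plus strand): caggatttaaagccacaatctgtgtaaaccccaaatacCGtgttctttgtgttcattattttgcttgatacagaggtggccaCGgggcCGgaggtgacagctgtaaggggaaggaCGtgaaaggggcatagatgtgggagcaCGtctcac
Fzd5 (chr1:64737818-64737967, minus strand): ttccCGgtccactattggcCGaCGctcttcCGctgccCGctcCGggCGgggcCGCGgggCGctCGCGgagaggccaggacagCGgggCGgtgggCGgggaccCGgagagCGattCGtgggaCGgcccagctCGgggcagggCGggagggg
Fzd1 (chr5:4758217-4758366, minus strand): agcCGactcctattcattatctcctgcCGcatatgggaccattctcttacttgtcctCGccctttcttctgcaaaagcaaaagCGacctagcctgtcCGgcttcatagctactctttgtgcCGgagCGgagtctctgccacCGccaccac
Wnt9a (chr11:59308248-59308397, plus strand): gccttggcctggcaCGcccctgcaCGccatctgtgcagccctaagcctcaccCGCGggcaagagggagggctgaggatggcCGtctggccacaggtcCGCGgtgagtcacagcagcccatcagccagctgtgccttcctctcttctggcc
Wnt1 (chr15:98789243-98789392, plus strand): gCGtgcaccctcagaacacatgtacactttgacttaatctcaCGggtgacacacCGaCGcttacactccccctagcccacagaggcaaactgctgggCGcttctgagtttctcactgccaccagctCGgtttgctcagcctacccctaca
Wif1 (chr10:121033480-121033629, plus strand): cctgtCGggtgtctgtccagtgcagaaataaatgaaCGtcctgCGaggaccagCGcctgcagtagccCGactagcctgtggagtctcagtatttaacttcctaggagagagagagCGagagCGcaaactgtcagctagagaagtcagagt
Wls (chr3:159839500-159839649, plus strand): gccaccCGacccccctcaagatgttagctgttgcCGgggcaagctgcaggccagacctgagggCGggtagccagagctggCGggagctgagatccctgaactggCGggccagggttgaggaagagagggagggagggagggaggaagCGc
Of these stretches of 150 bp, that of Fzd5 held 21 CG, and the others held 5 in Fzd4, 8 in Fzd1, 7 in Wnt9a, 6 in Wnt1, 7 in Wif1 and 6 in Wls. For contrast, DNA upstream of the 5′ end, again outside such exons, is given for 3 genes that were rich in CG but had no promoter peak; these 3 were chosen after their values were seen.
Wnt4 (chr4:137277339-137277488, plus strand): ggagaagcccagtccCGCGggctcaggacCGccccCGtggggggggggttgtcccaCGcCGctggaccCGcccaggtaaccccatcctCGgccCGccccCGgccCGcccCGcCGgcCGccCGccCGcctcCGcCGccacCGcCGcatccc
Fzd9 (chr5:135251231-135251380, minus strand): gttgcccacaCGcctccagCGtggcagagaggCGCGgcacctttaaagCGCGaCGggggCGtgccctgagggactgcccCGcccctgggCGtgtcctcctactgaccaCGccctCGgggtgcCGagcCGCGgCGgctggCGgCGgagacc
Sfrp1 (chr8:23411233-23411382, plus strand): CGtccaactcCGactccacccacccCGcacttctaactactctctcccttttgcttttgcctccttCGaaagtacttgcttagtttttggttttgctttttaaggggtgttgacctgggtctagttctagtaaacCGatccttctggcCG
These stretches held 20 CG for Wnt4, 18 for Fzd9 and 6 for Sfrp1. As these 3 genes were picked for being rich in CG without a promoter peak, no conclusion is drawn from the contrast.

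A promoter peak, meaning a peak within 1 kb of any annotated TSS, was present at 16 of the 43 genes (37.2%), beside the same 53.7% of all protein-coding genes. The classes differed in this count. Of the receptors, 9 of 12 had a promoter peak (75%), of the ligands 4 of 19 (21.1%), of the inhibitors 1 of 10 (10.0%), and both Porcn and Wls had one. The receptors thus lay above the share of all genes and the ligands and inhibitors below it. All 12 receptors were CpG-rich by the limits given below, however. Of all CpG-rich protein-coding genes 82.9% had a promoter peak, and the receptors lay below that share.

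**Figure D1:**
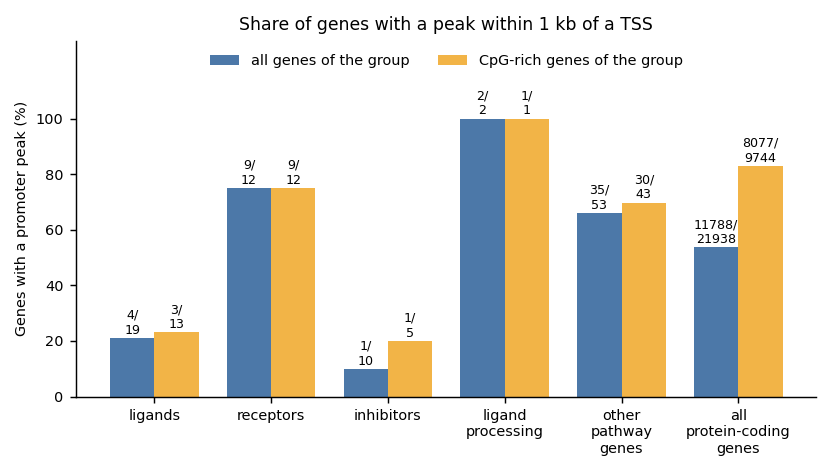
Share of genes with a peak within 1 kb of a TSS (percent, vertical axis) by group, over all genes of the group (blue) and over its CpG-rich genes (orange), with the counts printed above each bar. Receptors stand at 75% on both bars, whereas ligands stand at 21.1% and 23.1% and inhibitors at 10.0% and 20%, beside 53.7% and 82.9% for all protein-coding genes.

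Among the Frizzled receptors, which bind the ligands through a cysteine-rich domain, 7 of 10 had a promoter peak. Fzd4, also the receptor for the unrelated ligand norrin, had the highest one, at chr7:89403757-89404916, with a fold enrichment of 16.2 (13.6 to 19.3) from 130 fragments. This peak also lay within 1 kb of the start of a transcript of the neighbouring coding gene Tmem135, which GENCODE lists as a processed transcript without a coding sequence. Fzd5 followed with 13.7 (11.8 to 15.8) from 186 fragments at chr1:64737126-64738253, where a transcript of Gm38058 also starts. Fzd1 had 11.7 (10.2 to 13.4) from 203 fragments at chr5:4757305-4758562. Although Fzd1 had the most fragments of the 3, its local background was also the highest, with 16.4 expected fragments against 12.7 for Fzd5 and 7.07 for Fzd4, so the order of the fold enrichments was not the order of the fragment counts. The intervals of Fzd4 and Fzd5 overlapped, as did those of Fzd5 and Fzd1, while that of Fzd4 lay above that of Fzd1.

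The remaining Frizzled promoters had lower fold enrichments. Fzd7 had the widest promoter peak of the receptors, 1645 bp at chr1:59481291-59482935, with a fold enrichment of 9.35 (7.78 to 11.1) from 123 fragments. Fzd3, best known for axon guidance and planar polarity, had 8.88 (6.35 to 12.1) from 38 fragments. Fzd2 had 3 separate peaks, the highest with 7.88 (6.05 to 10.1) from 61 fragments and the others with 19 and 20 fragments. Fzd8 had 6.04 (3.88 to 9.01) from 22 fragments. The intervals of these 4 genes overlapped one another, so their order was not resolved. Those of Fzd7 and Fzd3 also overlapped that of Fzd1, and that of Fzd3 overlapped that of Fzd5. Fzd6, Fzd9 and Fzd10 had no promoter peak, and their nearest peaks lay 15.9 kb, 12.7 kb and 132 kb from a TSS; that of Fzd9 stood at the start of the noncoding gene 9430007M09Rik.

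Both coreceptors had a promoter peak, but of different height. Lrp6 had 10.5 (8.28 to 13.2) from 74 fragments in a peak of 1258 bp at chr6:134566316-134567573, over its TSS. Lrp5 had 3.13 (1.92 to 4.85) from 18 fragments in a peak of 132 bp at chr19:3686039-3686170, which lay in an intron, 386 bp from the nearest annotated TSS. The interval of Lrp6 lay above that of Lrp5.

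**Figure D2:**
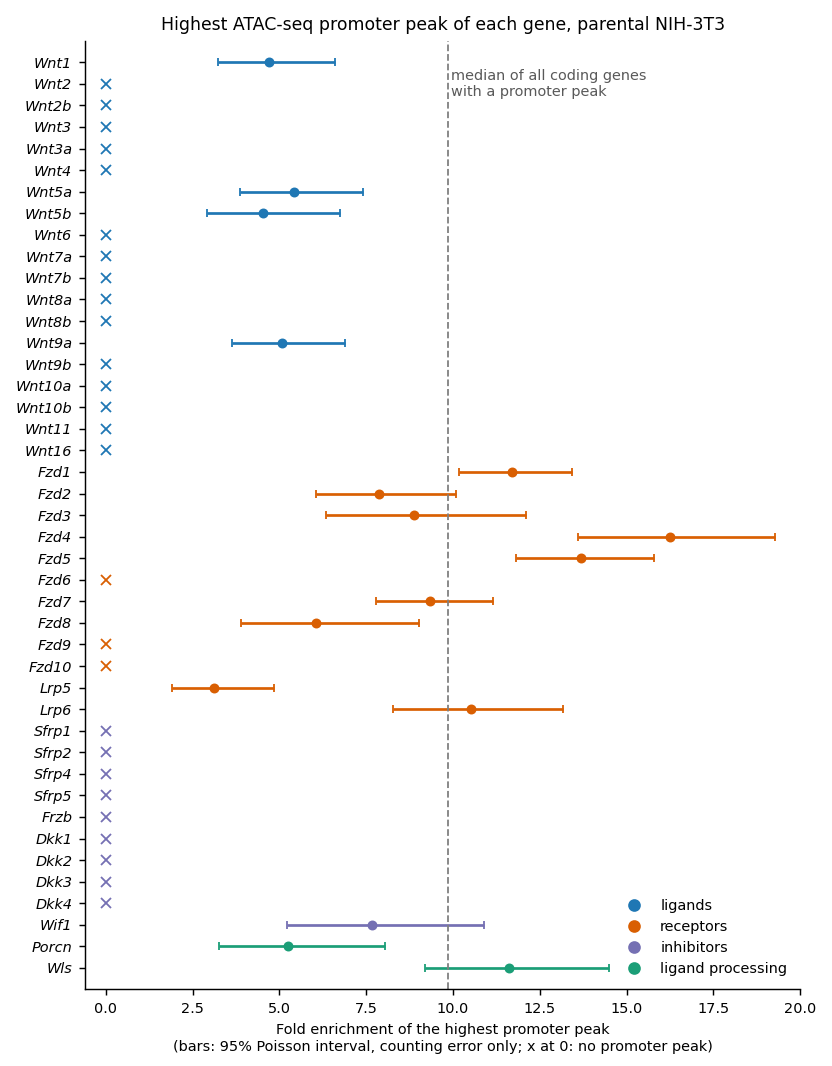
Fold enrichment over local background (horizontal axis) of the highest promoter peak of each of the 16 genes that had one, coloured by class, with 95% exact Poisson intervals for counting error. Fzd4 stands highest at 16.2, and the 4 ligands lie between 4.53 and 5.42.

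The ligand promoters with a peak were those of Wnt1, Wnt5a, Wnt5b and Wnt9a. Wnt1, a classical activator of beta-catenin, had a peak of 392 bp at chr15:98789088-98789479 that ended 378 bp from the TSS, with a fold enrichment of 4.70 (3.24 to 6.61) from 31 fragments. Wnt5a, the prototype of the ligands that act without beta-catenin, had 3 promoter peaks with 24, 37 and 21 fragments. The highest of them, at chr14:28505463-28506098, reached 5.42 (3.86 to 7.42). Its summit lay in an exon, 0.823 kb past the 5′ end of the gene. The peak covered an internal TSS that lay downstream of the summit. In Wnt5b, the close paralog of Wnt5a, the promoter peak of 4.53 (2.91 to 6.76) from 22 fragments was at an internal transcript start 76.5 kb inside the gene, and none was called at the 5′ end. Wnt9a had 2 peaks, with 3.31 (2.19 to 4.83) from 25 fragments and 5.06 (3.62 to 6.90) from 38 fragments, the higher one 871 bp from the TSS. All of these intervals overlapped, and the highest promoter peak covered a TSS in 2 of the 4 ligands, against 8 of the 9 receptors.

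Where a promoter peak was present, it had more fragments in the median receptor than in the median ligand. The median fold enrichment of the highest promoter peak was 9.35 for the 9 receptors and 4.88 for the 4 ligands, beside 9.86 (quartiles 7.27 to 12.4) for all protein-coding genes with one. The median number of fragments was 74 for receptors and 34 for ligands, and the median width 1128 bp and 632.5 bp. Of the 9 receptors, 5 (Fzd4, Fzd5, Fzd1, Lrp6 and Fzd7) had an interval that lay wholly above the highest ligand bound of 7.42. The intervals of Fzd3, Fzd2 and Fzd8 included that bound, and that of Lrp5 lay wholly below it. The fold enrichment of Lrp5, 3.13, was below those of all 4 ligands, though its interval overlapped theirs. The same 5 stood apart by the number of fragments alone. This separation depends on the 1 kb limit, which left out the peak of Wnt6, 1075 bp from its TSS. That peak had 14.2 (11.7 to 17.1) from 110 fragments, and its upper bound exceeded the lower bound of every receptor. By fragments, only Fzd1 and Fzd5 had a lower bound above its upper bound of 132.6. More than 1 promoter peak was found at 4 of the 43 genes (Wnt5a, Wnt9a, Fzd2 and Wls), beside 13.0% of all protein-coding genes.

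The other 15 ligands had no promoter peak, and the distance to the nearest peak varied among them. Wnt6 lay just outside the limit, with a peak 1075 bp from its TSS in its own intron that had a fold enrichment of 14.2 from 110 fragments. Next came Wnt10b at 2.02 kb, Wnt3a at 3.05 kb, Wnt7b at 3.11 kb, Wnt8a at 3.24 kb and Wnt10a at 3.40 kb. Wnt2b (5.71 kb), Wnt8b (5.76 kb), Wnt16 (7.38 kb), Wnt7a (7.75 kb), Wnt11 (8.45 kb) and Wnt4 (9.77 kb) had a peak within 10 kb. In Wnt2, Wnt9b and Wnt3 the nearest peak was 51.4, 51.6 and 75.9 kb away, and for the neighbours Wnt9b and Wnt3 it was the same peak, at the start of Gosr2. The median distance over the 15 ligands was 5.76 kb, beside 23.1 kb over all protein-coding genes without a promoter peak.

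Among the inhibitors the promoter peak was that of Wif1, at chr10:121033469-121034093, with a fold enrichment of 7.66 (5.22 to 10.9) from 29 fragments. None of the 5 genes of the Sfrp family, Frzb included, and none of the 4 Dkk genes had one. Dkk2 lay just outside the limit, 1007 bp from a peak with a fold enrichment of 5.52 from 20 fragments. Sfrp4 was 3.17 kb from a peak of 14.1 from 58 fragments, which stood at the start of the neighbouring gene Epdr1, and Dkk3 was 3.58 kb from a peak of 6.30 in its intron. For Dkk1 the distance was 5.11 kb, for Sfrp5 11.5 kb, for Sfrp2 15.1 kb and for Frzb 16.1 kb. Dkk4 and Sfrp1 were farthest, at 29.0 kb and 104.8 kb.

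Both genes of ligand processing had a promoter peak. Wls, the carrier that takes the ligands to the surface, had 11.6 (9.19 to 14.5) from 76 fragments at chr3:159839384-159840679, and a second peak with 16 fragments. Porcn, the acyltransferase, had 5.25 (3.27 to 8.06) from 19 fragments at chrX:8206266-8206600. The fold enrichment of Wls fell between those of Fzd1 and Lrp6, and its interval lay above that of Porcn.

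The promoters also differed in their content of CpG, the dinucleotide that is depleted in most of the genome and retained in CpG islands. In the 1 kb around the 5′ end, the observed over expected CpG ratio had a median of 0.684 over the 43 genes and 0.553 over all protein-coding genes. It was 0.854 for receptors, 0.655 for ligands and 0.554 for inhibitors. Over all protein-coding genes the ratio was 0.727 with a promoter peak and 0.236 without, a wide gap, whereas over the 43 genes it was 0.767 with and 0.629 without. Of the 31 genes that were CpG-rich (a ratio of at least 0.6 and at least 50% GC, limits set after the values were seen), 14 had a promoter peak (45.2%), beside 82.9% of all CpG-rich protein-coding genes. By class this was 3 of 13 ligands, 9 of 12 receptors and 1 of 5 inhibitors. The 3 ligands were Wnt5a, Wnt5b and Wnt9a. For Wnt5b the promoter peak lay 76.5 kb inside the gene, and none was called at the 5′ end where the ratio was taken. Of the 12 CpG-poor genes, 2 (Wnt1 and Wls) had a promoter peak, 16.7% beside 30.4%.

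**Figure D3:**
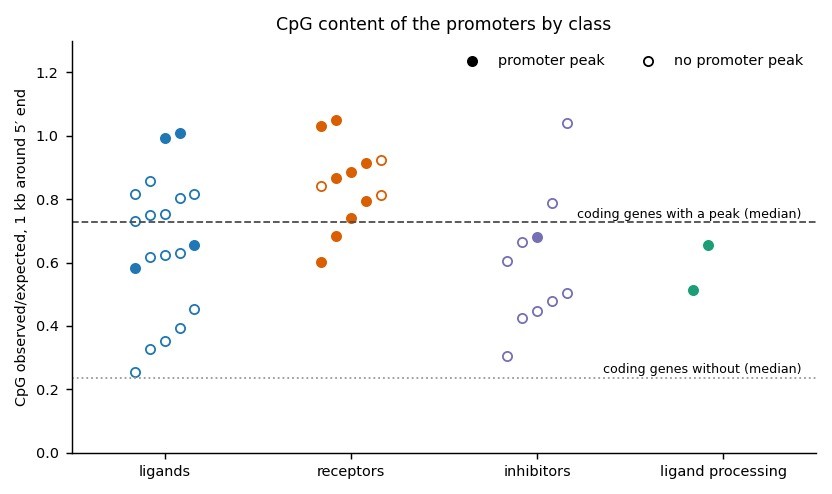
Observed over expected CpG ratio in the 1 kb around the 5′ end of each of the 43 genes (vertical axis, no unit) by class, for genes with and without a promoter peak. Ligands without a promoter peak have a median of 0.629 and receptors without one 0.842, above the 0.236 of all protein-coding genes without one. Wnt5b is shown as having a promoter peak, although that peak is at an internal start and not at the 5′ end.

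Although most ligands and inhibitors had no promoter peak, most had peaks in or near the gene. A peak in the gene or within 25 kb of it was found for 38 of the 43 genes (88.4%). Of all protein-coding genes 80.1% had one. By class it was 17 of 19 ligands, 11 of 12 receptors, 8 of 10 inhibitors and 2 of 2 genes of ligand processing. The share of the inhibitors was thus close to that of all protein-coding genes and not above it. Wnt3, Wnt9b, Fzd10, Sfrp1 and Dkk4 had no such peak. The median was 3 peaks per gene for the 43 genes and for all protein-coding genes. Per 100 kb of gene and flank, the median was 4.79 for ligands, 5.40 for receptors and 3.39 for inhibitors, and 3.845 over all protein-coding genes. In total 153 distinct peaks were found, of which 22 were promoter peaks of these genes, 15 lay at the TSS of another gene and 116 were distal. Of the distal peaks 50 were in introns, 5 in exons and 61 between genes, and their median fold enrichment of 5.52 was close to the 5.54 of all 47192 distal peaks of the list.

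**Figure D4:**
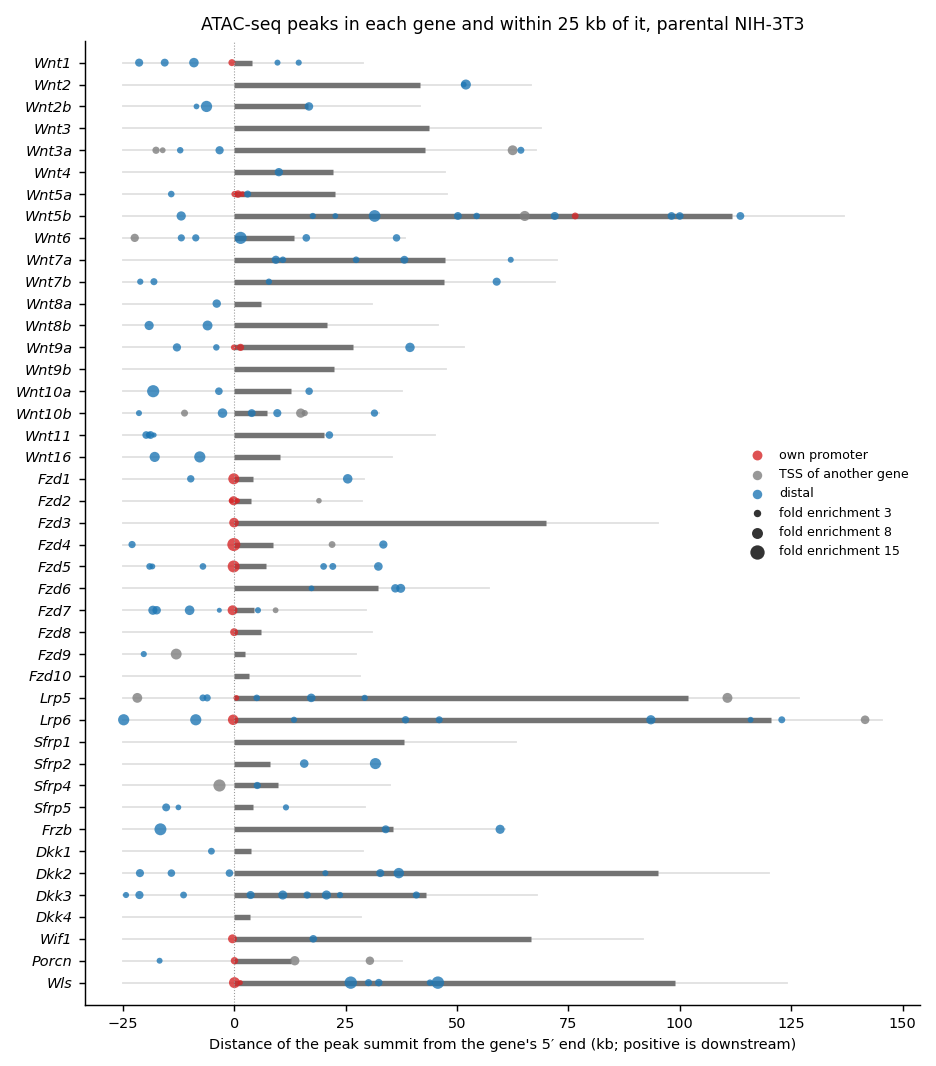
Position of the peaks in or within 25 kb of each of the 43 genes, as distance from the 5′ end of the gene in kb along the direction of transcription (horizontal axis), with genes in rows by class and marks by kind of peak. Rows without a mark are Wnt3, Wnt9b, Fzd10, Sfrp1 and Dkk4.

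Neighbouring ligand genes shared some of these peaks. Wnt1 and Wnt10b, 11.7 kb apart, shared 5 of the 9 peaks around them, Wnt3a and Wnt9a, 16.2 kb apart, shared 4 of 7, and Wnt6 and Wnt10a, 6.19 kb apart, shared 3 of 6. The pair Wnt3 and Wnt9b, 24.3 kb apart, had no peak at all. At these distances the flanks of 25 kb overlap, so that some sharing follows from the search itself. The shared peaks included 1 promoter peak of Wnt1 and 2 of Wnt9a. The shared distal peaks cannot be given to 1 gene of a pair from these data.

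By number alone, Wnt5b had the most distal peaks among the ligands, with 10, followed by Wnt1, Wnt6, Wnt7a, Wnt10b and Wnt11 with 5 each. Among the receptors these were Lrp6 with 8, Fzd5 with 6 and Fzd7 and Lrp5 with 5 each; 3 of the peaks of Fzd5 lay in introns of its neighbour Ccnyl1. In the inhibitors Dkk3 had 9, Dkk2 had 6 and Sfrp5 and Frzb had 3 each. Dkk3 and Dkk2 thus had no promoter peak but distal peaks on both sides of the 5′ end, with fold enrichments of 3.58 to 8.01 for Dkk3 and 3.41 to 10.4 for Dkk2. Wls had 5 and Porcn 1. These counts were not corrected for the length searched, which was 161.8 kb for Wnt5b and 170.5 kb for Lrp6 but 57.4 kb for Wnt10b and 57.2 kb for Fzd5. Per 100 kb, with promoter peaks included, the order changed: Wnt10b (13.9), Wnt1 (11.1) and Wnt6 (9.46) stood above Wnt5b (7.42), and Fzd7 (12.8) and Fzd5 (12.2) above Lrp6 (5.87) and Lrp5 (5.27). Dkk3 (9.67) stayed first among the inhibitors, followed by Sfrp5 (5.53) and Dkk2 (4.14).

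The highest distal peaks belonged to genes with and without a promoter peak. The top 2 lay in introns of Wls, 45.7 kb and 26.1 kb from its 5′ end, with fold enrichments of 14.9 (12.1 to 18.1) and 14.7 (11.7 to 18.4). The third was the intronic peak of Wnt6, with an interval of 11.7 to 17.1, which was also within 25 kb of Wnt10a. Upstream of Frzb, a Wnt-binding protein first described in cartilage, a peak at 16.6 kb had 13.7 (10.7 to 17.3). In an intron of Wnt5b a peak 31.5 kb from the 5′ end had 13.3 (10.6 to 16.3) from 86 fragments, an interval above that of its own promoter peak. Then followed peaks 6.24 kb upstream of Wnt2b with 12.2 (9.46 to 15.4) and 7.74 kb upstream of Wnt16 with 12.1 (9.71 to 14.9), and 2 upstream of Lrp6 with 12.1 and 12.0. The tenth lay 31.7 kb downstream of the 5′ end of Sfrp2, with 11.8 (8.71 to 15.7). Around the ligands 4 distal peaks, those of Wnt6, Wnt5b, Wnt2b and Wnt16, had intervals wholly above the 7.42 that bounded the ligand promoters.

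The summits of the distal peaks were searched on both strands, over 50 bp to either side, for the letters TGACTCA (AP-1), GGAATG (TEAD), CTTTGAT or CTTTGAA (TCF/LEF) and TGACGTCA (the cAMP response element). None of these motifs contains another, although the AP-1 motif and the response element begin alike. Examples of such windows are given as examples on the plus strand, the motif in capitals: 3 with the AP-1 letters, upstream of Frzb, in the Wnt5b intron and at the second peak upstream of Wnt16, and 1 with the TEAD letters, upstream of Wnt2b.
Frzb (chr2:80464154-80464254, plus strand): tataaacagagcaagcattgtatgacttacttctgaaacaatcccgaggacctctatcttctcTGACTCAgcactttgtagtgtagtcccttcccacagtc
Wnt5b (chr6:119512802-119512902, plus strand): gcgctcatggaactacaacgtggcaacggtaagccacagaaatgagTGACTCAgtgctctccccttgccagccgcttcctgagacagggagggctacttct
Wnt16 (chr6:22270304-22270404, plus strand): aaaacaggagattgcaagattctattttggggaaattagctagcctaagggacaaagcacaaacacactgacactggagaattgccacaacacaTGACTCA
Wnt2b (chr3:104968107-104968207, plus strand): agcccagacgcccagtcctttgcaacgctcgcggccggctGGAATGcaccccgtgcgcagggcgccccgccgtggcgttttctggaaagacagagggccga
Of the 116 distal peaks, 21 held the AP-1 letters (18.1%), beside 26.4% of all distal peaks of the list. By class it was 9 of 52 for ligands, 6 of 32 for receptors, 6 of 26 for inhibitors and 0 of 6 for ligand processing. The TEAD letters were in 7 (6.03%), beside 9.52%. The TCF/LEF letters, to which the nuclear effectors of the pathway bind, were in 0 of 116, beside 2.7%, and those of the cAMP response element in 0, beside 0.206%. With shares this low few matches are to be found in 116 peaks, and a lack of these letters was not tested. Of the 22 promoter peaks 1, the higher peak of Wnt9a whose sequence is printed above, held the AP-1 letters (4.55%), beside 8.15% of all promoter peaks. These are matches of letters in a window and do not show that a factor was bound.

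Among 53 other genes of the pathway, 35 had a promoter peak (66.0%, beside the same 53.7%), with a median fold enrichment of 9.06. Of these 53 genes, however, 43 were CpG-rich, and 30 of the 43 had a promoter peak (69.8%). That lay below the 82.9% of all CpG-rich protein-coding genes. All 10 genes of the cytoplasmic core, such as Ctnnb1, which encodes beta-catenin, Axin1 and Gsk3b, had one. So did 7 of 9 nuclear effectors, Pygo2 at 13.9 and Ctnnbip1 at 13.0 among them and Tcf7 and Pygo1 excepted, and 6 of 7 planar polarity genes, Celsr1 excepted. Of the other receptors and coreceptors 6 of 8 had one, and Ptk7 and Kremen2 did not. Among the R-spondin genes and the other modulators listed here, promoter peaks were few. Rspo1, Rspo2, Rspo3 and Rspo4, which encode the R-spondins that enhance Wnt signalling, had none, whereas their receptors Lgr4 (15.6, 149 fragments) and Lgr6 (10.5) and the ubiquitin ligases Znrf3 (9.35) and Rnf43 (5.62), which remove Frizzled from the surface, did, and Lgr5 did not. Of 6 other secreted or surface modulators Apcdd1 had one (8.77), and Notum, Sost, Sostdc1, Draxin and Dkkl1 had none. Of 4 genes commonly induced by the pathway as feedback, Axin2 had one (6.58), and Nkd1, Nkd2 and Sp5 had none.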

How the data were processed

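The peak list of 1 parental NIH-3T3 library was used. Per the labels, 50000 cells were transposed with Tn5 and the DNA was amplified by PCR. The submitters' processing notes name STAR 2.5.3a, Picard, SAMtools, deepTools, MACS2 2.1.1.20160309 and mm10. For each peak the authors deposited a fold enrichment (a ratio over local background), −log10 p and −log10 q values, a score and a summit offset; the score was not used further. The total number of reads is not given by the list. Fragments at a summit and the expected number were solved from the fold enrichment and −log10 p, and were whole within 0.02 for 99.997% of peaks. Peaks were compared with GENCODE transcripts and the mm10 sequence by scripts in Python 3.11.15 with NumPy 2.4.6, pandas 2.3.3 and SciPy 1.17.1, and figures were drawn with matplotlib 3.10.9. The assignment of peaks to genes was tested on simulated data. Every gene of the rule is accounted for. Those with a promoter peak are given by their highest one and those without by the distance to the nearest peak. The 10 highest distal peaks and the genes with most distal peaks in each class are named too. Genes and lists were chosen with earlier results of these data known. Alternatives changed the distance, the TSS set, the peak cut-off, the measure and the motif window.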

Additional observations from a re-analysis of the deposited data

How the results depend on the processing

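Of 74 alternative values over 19 results, 54 stayed within the limits set for a change, 20 moved and 0 reversed. Nearly all of these results were counts, medians or shares, which have no direction and could not reverse. Within 5 kb of a TSS, 10 of 19 ligands had a peak, with a median fold enrichment of 5.86, and 4 of 10 inhibitors, beside 62.8% of all protein-coding genes, so that the gap between ligands and all genes was much smaller than within 1 kb. At a fold enrichment of at least 5, 2 ligands had a promoter peak, beside 48.8% of all protein-coding genes. The ratio of medians, receptors over ligands, was 1.91 and became 3.92 with −log10 q. Distinct peaks around ligands (64) were 109 within 50 kb and 38 at a fold enrichment of at least 5. Those around receptors (50) were 33 within 10 kb, 79 within 50 kb, 26 at a fold enrichment of at least 5 and 32 when only distal peaks were counted. Those around inhibitors (28) were 18 within 10 kb and 49 within 50 kb, and those around Porcn and Wls (11) were 7 at a fold enrichment of at least 5 and 6 when only distal. Wider windows raised the share with motif letters, given first within 100 bp of the summit and then in the whole peak. AP-1 rose to 26.7% and 34.5%, beside 36.5% and 40.8% of all distal peaks. TEAD rose to 16.4% and 25%, beside 16.9% and 24.1%, and TCF/LEF to 2.59% and 6.90%, beside 6.18% and 10.8%. No paired analysis was possible because 1 library was analysed, and for the same reason no replicate could be left out. The depth limits calls to peaks of 10 or more fragments, and a gene without a peak was not shown to be inaccessible.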
